A study of Mus musculus with 27 samples.

Results

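The cytosolic ribosomal protein genes encode the protein part of the ribosome that translates messenger RNA in the cytoplasm. They were taken from the table of expected gene counts by their symbols, as *Rpl* or *Rps* followed by a number and at most 1 of the letters a, x and l, together with *Rplp0*, *Rplp1*, *Rplp2* and *Rpsa*. This gave 80 of the 37310 genes in the table, of which 78 were expressed highly enough to be tested among 15387 genes. The missing pair were *Rpl3l*, the paralogue of *Rpl3* known from muscle, whose mean was 0.0108 CPM (counts scaled to a library total of 1e+06, with edgeR's TMM factors), and *Rpl10l*, the paralogue of *Rpl10* known from testis, with 0 counts in every library, which allows up to 3 counts in each. Both low genes stay in the count of 80 and in the sums below.

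The genes were measured by RNA-seq in mouse embryonic fibroblasts (MEFs), primary cells grown from the trunk of mid-gestation embryos after removal of the viscera, head and limbs. The 12 libraries form 4 groups of 3 replicates: female and male wild-type MEFs, and female and male *Firre* KO MEFs, in which the *Firre* long non-coding RNA locus on chromosome X was deleted by recombination between loxP sites inserted on both sides of it. The deletion is in the germline, so every cell of a KO line carries it, and no group carries a transgene. Strain is not given for the RNA-seq lines, and the sources used here do not say whether the replicates of a group came from separate embryos, so the p-values measure the spread between these libraries, which may be technical. *Firre* had 0 counts in all 6 KO libraries. Wild-type libraries held 91, 90 and 129 counts in female and 287, 307 and 239 in male MEFs.

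Depth was 42986516 to 65454660 expected counts per library. All 10 fibroblast markers were detected in every group, with summed levels of 16215 to 24078 CPM, although *Dcn* averaged only 7.53 to 11.6 CPM. Summed macrophage markers (5 of 6 in the table) ranged from 28.6 to 91.6 CPM across female libraries and from 5.84 to 12.1 CPM across male ones. Summed epithelial markers (5 of 5) were also apart, at 17.9 to 47.0 CPM in female and 5.08 to 13.5 CPM in male libraries, as were the group means of the neural crest marker *Sox10* (6.19 and 6.72 CPM against 1.29 and 1.87 CPM), and, in wild-type libraries, summed endothelial markers (21.7 to 33.3 CPM in female and 13.9 to 20.5 CPM in male). Erythroid markers summed to at most 0.0701 CPM, and the summed neural and skeletal muscle markers overlapped between the sexes. The part of these markers in the comparison of the sexes was not tested. Both male libraries with number 3 stood apart: the chi-square per degree of freedom of their counts against the other males of their group was 35.2 to 41.9, while the other pairs of replicates in the series gave 7.12 to 15.5. No pair of libraries agreed within sampling noise.

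As background, each ribosome holds a small subunit, built around 18S ribosomal RNA with the proteins named *Rps*, and a large subunit with the proteins named *Rpl*, nearly all of them in a single copy per particle. Their messengers are among the most abundant of a growing cell, are short, and typically begin with a terminal oligopyrimidine tract, a run of C and U at the 5′ end through which mTOR signalling regulates their translation as a group. The same genes are also the main source of processed pseudogenes in mammalian genomes, intronless copies made by reverse transcription of the messenger, which can be so similar to the parent that a short read matches both.

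The copies that took the most reads show how small the differences are. Of the 20 copies with the most counts, 11 had no mismatch or gap against the whole coding sequence of their parent and 4 had a single mismatch. The 30-base windows below hold that mismatch in capitals for 2 of these pairs, which are shown because a read must cover this base to tell parent from copy within the coding sequence. Positions count from 1 at the first coding base, the base of the ribosomal protein gene is given first, and coordinates are those of mm9. The pair *Rps27a* and Gm8430 differs by A71G, and *Rpl37* and Gm13826 by G249A.
Rps27a, chr11:29447224-29447253, minus strand: cctcggacactatagAaaatgtaaaggcca
Gm8430, chr6:122406977-122407006, plus strand: cctcggacactatagGaaatgtaaaggcca
Rpl37, chr15:5068576-5068605, plus strand: ccgtgagggaacaacGccgaaacccaagag
Gm13826, chr5:115553268-115553297, minus strand: ccgtgagggaacaacAccgaaacccaagag

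At the other end of the messenger, start-site windows were available for 59 of the 80 genes from RefSeq (GRCm38.p6, 15 bases before the annotated start and 15 from it on). A run of at least 5 pyrimidines over the start base was present in 18 of the 59 genes (30.5%), against 9.95% of 27025 promoters. Only a run that includes the annotated start base of 1 RefSeq entry per gene was counted. One that begins just after it, as in *Rpl18*, was not, so the share depends on how exactly starts are annotated. For 8 of the 18, chosen as examples of long and short runs, the window is printed with the run in capitals, and *Rpl13*, whose run is shorter than 5 bases, is given beside them.
Rpl7a, chr2:26910792-26910821, plus strand: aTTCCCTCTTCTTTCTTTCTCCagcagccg
Rpl15, chr14:18270972-18271001, minus strand: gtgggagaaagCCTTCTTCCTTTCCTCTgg
Rps10, chr17:27635230-27635259, minus strand: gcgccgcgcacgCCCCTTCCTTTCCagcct
Rps18, chr17:33955651-33955680, minus strand: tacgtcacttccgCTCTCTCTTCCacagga
Rps6, chr4:86857353-86857382, minus strand: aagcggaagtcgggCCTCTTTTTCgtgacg
Rps27, chr3:90213634-90213663, minus strand: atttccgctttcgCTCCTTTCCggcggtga
Rps15a, chr7:118116133-118116162, minus strand: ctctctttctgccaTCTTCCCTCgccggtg
Rpl39, chrX:37085208-37085237, minus strand: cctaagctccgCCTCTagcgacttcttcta
Rpl13, chr8:123102335-123102364, plus strand: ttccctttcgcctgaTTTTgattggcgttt

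In the wider promoter windows (250 bases before to 50 after the start, both strands searched, motifs allowed to overlap), the letters CCGGAAG, bound by ETS family factors, occurred in 23 of 59 genes (39%) and in 9.12% of all promoters. CTTTCC, a pyrimidine string that need not lie at the start, occurred in 28 (47.5%, against 26.3%), and GGGCGG, bound by SP factors, in 34 (57.6%, against 35.9%). AGATGGC, bound by YY1, was found in 6 genes (10.2%, against 6.45%), and TATAAA in 5 (8.47%, against 14.2%). A match is a string of letters in this window and no measure of binding.

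The authors quantified reads with RSEM, which divides a read that fits several genes among them, and such division leaves counts that are not whole numbers. In each library 60 to 65 of the 80 ribosomal protein genes had a count that was not whole (beyond a tolerance of 0.001), and 69 of the 78 tested genes did so in at least 1 library. Among all tested genes, 58.7% were whole in every library. A count that is not whole shows that reads were shared, and a whole count does not show that none were.

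To see where the shared counts went, every transcript of the annotation was compared with the ribosomal protein transcripts, and a gene was taken as a copy when it matched at 90% identity or more over at least 50% of the transcript. This found 540 copies of 60 of the genes, of which 391 are annotated as pseudogenes and 144 as protein-coding, and 469 had any count. The copies took 9.44% of the counts of the genes and copies together, and 10 copies held 85.3% of that. Requiring 95% identity left 342 copies with 9.15%. Matching over the coding sequence in place of the transcript, which tolerates genes whose longest annotated transcript carries extra exons, gave 658 copies of 71 genes and 14.4% of the counts.

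Some genes were left with little of their own. *Rps13*, a small subunit protein (ENSMUSG00000090862.1, mm9 chr7:123475021-123477704), kept so few counts that 89.0% of its family total went to copies, almost entirely Gm10159, which has no mismatch or gap over the 456 coding bases. The share was 87.7% for *Rpl27* (chr11:101303612-101306843; copy Rpl27-ps3), 86.2% for *Rpl10a* (chr17:28465416-28467977; copy Rpl10a-ps1), 81.9% for *Rpl10* (chrX:71516151-71518474; copy Rpl10-ps3, chr9:50152345-50153072) and 81.2% for *Rpl15* (copy Rpl15-ps3). It was 61.0% for *Rpl21*, 50.1% for *Rps28*, 49.5% for *Rpl11* and 46.6% for *Rps27a*. Each of the first 5 of these main copies is identical to its parent over the whole coding sequence, so reads within it carry nothing that separates the pair.

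Other genes appeared free of copies over the transcript but not over the coding sequence. *Rpl5*, part of the 5S ribonucleoprotein that binds Mdm2, had 94.1% of its coding-matched counts in Gm15500 (chr7:121848731-121849749), a gene annotated as a processed transcript with no mismatch over 894 coding bases. *Rpl27a* had 92.2% in its copies, mainly Gm7536, *Rpl31* 73.9% and *Rpl35* 54.3%. In contrast *Rpl4*, *Rpl8*, *Rps3* and *Rps9* had no copy by either match. None was found for *Rpl13a* and *Rpl24* either, but the annotated sequences matched were long, with coding parts of 1272 and 3153 bases. A copy of a shorter messenger could cover too little of them to be counted. For *Rpl13a* and *Rpl24* the match therefore cannot show that copies are absent.

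For most genes the division between parent and copy was steady across libraries, but for a few it was not. The copy share of *Rpl13*, a large subunit protein (chr8:125626250-125629144), was 38.0%, 34.1% and 36.8% in female wild-type, 34.2%, 29.6% and 22.6% in female KO, 27.0%, 22.8% and 29.4% in male wild-type and 15.4%, 10.5% and 20.5% in male KO MEFs. The wild-type and KO groups did not overlap within the male libraries, and in female MEFs KO 1 lay between wild-type libraries. For *Rps6*, the substrate of S6 kinase, the share was 0.0195%, 3.65% and 5.24% in female wild-type and 5.81%, 13.9% and 7.43% in female KO MEFs. The male values were 1.29%, 3.11% and 1.15% in wild-type and 7.42%, 4.19% and 15.6% in KO MEFs. Here all KO libraries lay above the wild-type libraries of their sex. The main copy behind this, Gm13654, held 0 CPM in 1 female wild-type library and 163 CPM in 1 male KO library.

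For 8 genes the shares of the female and male libraries did not overlap, and 4 of these are described. *Rpl39* gave 22.4% to 27.3% of its family counts to copies in the female libraries (n = 6) and 10.4% to 14.7% in the male ones (n = 6). For *Rps16* the ranges were 20.1% to 26.9% and 8.17% to 13.1%, and for *Rpl19* 1.67% to 4.10% and 0.398% to 0.771%. *Rpl37a* went the other way, with 8.19% to 12.1% in female and 15.4% to 17.4% in male libraries. The other 4 were *Rpl10a*, *Rpl27*, *Rpl17* and *Rplp1*. *Rpl28* had a single low library, 0.0727% in female KO 2 against 5.31% to 9.50% in the other 11. These genes were picked out after their values were seen, and no test was made of the shares.

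**Figure D1:**
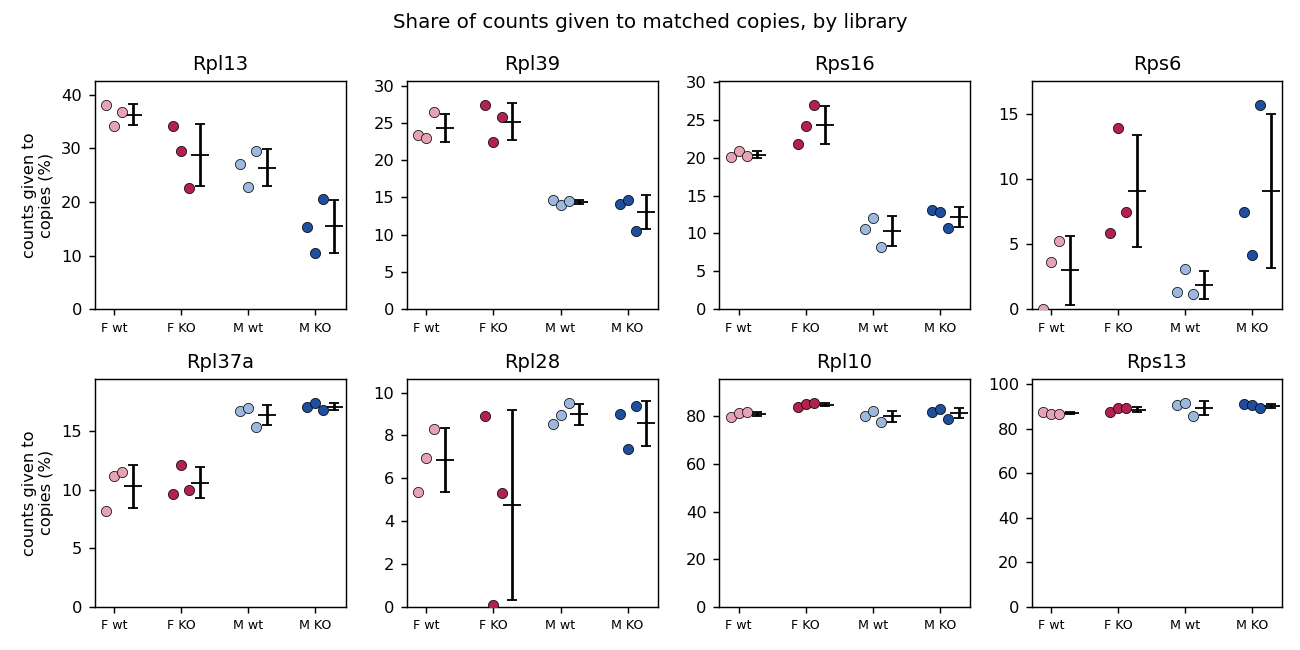
Share of each family's expected counts given to matched copies (percent, vertical axis, each panel with its own scale from 0) in the 12 libraries of female (F) and male (M) wild-type (wt) and *Firre* KO MEFs, for 8 genes. Points are libraries and the bars give mean ± SD (n = 3); *Rpl39*, *Rps16* and *Rpl37a* separate by sex, the KO points of *Rps6* lie above wild type in both sexes, and *Rpl10* and *Rps13* stay at 77.7% or more in every library.

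The 78 tested genes ranged over a wide span of levels. By CPM, the 5 highest were *Rplp0*, *Rps2*, *Rpl4*, *Rpsa* and *Rplp1*, which together made up 18.7% of the summed CPM of the tested genes. Levels of different genes can be compared only per length. Per kb of merged exons the 90th percentile of the genes was 12.7 times the 10th. *Rplp1* was highest (2583 CPM per kb), followed by *Rps12* (1869) and *Rpl32* (1259.7), and *Rpl39l* (6.09), *Rpl5* (15.9) and *Rpl27a* (20.2) were lowest. *Rplp1* encodes an acidic protein of the stalk that recruits elongation factors and that is present in more than a single copy per ribosome, while *Rps12* and *Rpl32* are ordinary single-copy components.

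Most of this spread depended on length and copies. With the coding length in place of merged exons the ratio of the percentiles was 6.17, and with the copies matched over the coding sequence added it was 2.03. On that last scale the median was 1208 CPM per kb and 73 of the 78 genes lay within 2-fold of it. *Rpl5* moved from 69.8 to 1180.0 CPM per kb of coding sequence when its copies were added, *Rpl27a* from 125 to 1629, *Rpl10* from 300.1 to 1661, and *Rps13* from 90.3 to 807. The genes that had no or few copy counts barely moved, among them *Rps4x* (1467 on both scales) and *Rplp0* (2109 and 2109.7).

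The 5 genes outside the 2-fold range were *Rplp1* (3708) and *Rps12* (2423) above it, and *Rps27l* (523), *Rpl24* (167) and *Rpl39l* (32.4) below it, all in CPM per kb of coding sequence with copies. *Rps27l* and *Rpl39l* are paralogues of *Rps27* and *Rpl39*, whose own levels on this scale were 1044 and 2242. *Rpl24*, named after its value was seen, has a longest annotated coding sequence of 3153 bases in this annotation, which divides its 528 CPM by more than the length of a typical ribosomal protein.

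**Figure D2:**
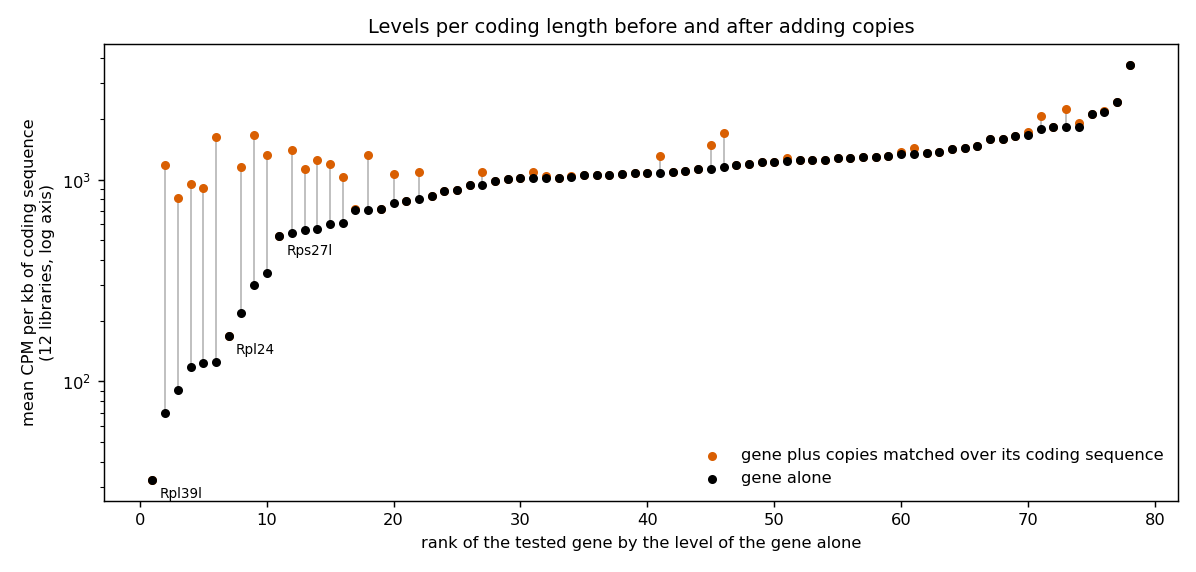
Mean level over 12 libraries in CPM per kb of coding sequence (vertical log axis) for the 78 tested genes, ordered from left to right by the level of the gene alone (black), with the level after adding copies matched over the coding sequence (orange). Several low genes, such as *Rpl5* (69.8 to 1180.0 CPM per kb), rise towards the median of 1208 CPM per kb when copies are added, while *Rpl39l*, *Rpl24* and *Rps27l* do not.

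The proportions among the genes were alike in all libraries. The lowest Spearman correlation of CPM between any 2 libraries across the 78 genes was 0.982, and within a group it was 0.995, as a description over genes that share a library. As a share of the summed CPM of the tested genes, a gene varied over the 12 libraries with a median coefficient of variation of 3.90%, and 71 of 78 stayed under 10%. *Rpl39l*, at 5.06 CPM, varied most (39.6%). Values above 10% were also found for *Rps13* (20.5%), *Rpl39* (20.2%), *Rpl13* (19.5%), *Rpl27* (16%), *Rpl10a* (15%) and *Rpl10* (12.6%). Genes with large copy shares were not all variable, since *Rpl15* had 7.18%, *Rpl21* 5.06%, *Rps28* 5.0% and *Rpl11* 3.09%.

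The summed share of a library that went to the 80 genes was 4.34%, 4.51% and 4.56% in female wild-type MEFs and 4.76%, 4.85% and 4.59% in female KO MEFs, with means of 4.47% ± 0.119 and 4.73% ± 0.136 (SD, n = 3). The female groups did not overlap, with the lowest KO library just above the highest wild-type library. In male MEFs it was 4.53%, 4.50% and 4.26% in wild-type (4.43% ± 0.146) and 4.55%, 4.58% and 4.35% in KO MEFs (4.49% ± 0.126), and the groups overlapped. Both male number 3 libraries had the lowest share of their group. With copies added the means were 4.95% and 5.25% in female and 4.88% and 4.95% in male wild-type and KO MEFs. In bulk RNA, fewer cells of a type and less RNA per cell cannot be told apart, and a share can also move because other genes do.

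**Figure D3:**
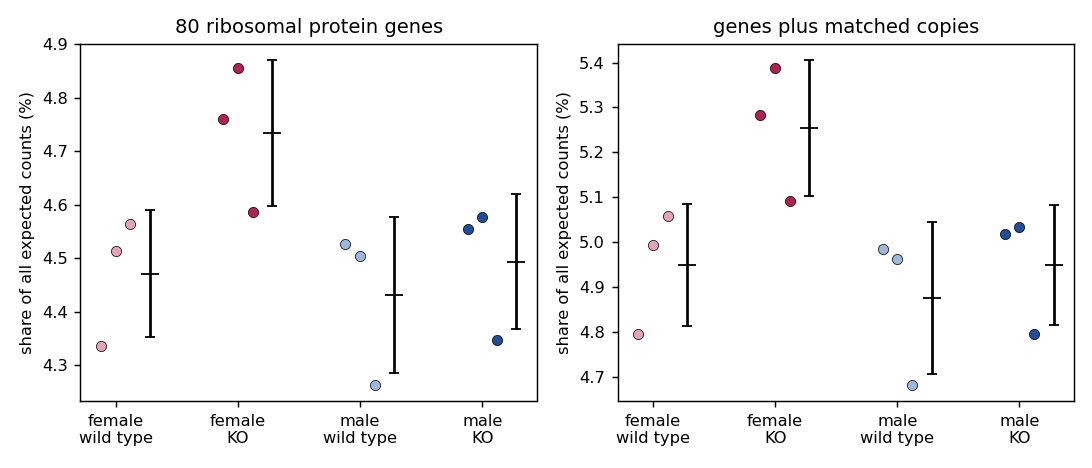
Share of all expected counts (percent, vertical axis, not starting at 0) taken by the 80 ribosomal protein genes (left) and by the genes with their matched copies (right) in each library. Points are libraries and bars give mean ± SD (n = 3); the female KO libraries (4.59% to 4.85%) lie above the female wild-type libraries (4.34% to 4.56%), and the male groups overlap.

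The deletion of *Firre* was compared with wild type within each sex, to ask whether loss of the locus altered expression of these genes. In female MEFs no ribosomal protein gene passed the test, while most had a log2 fold change above 0. By the quasi-likelihood test of edgeR, with p adjusted by Benjamini-Hochberg over all tested genes, 0 of 78 were called at the study's thresholds, which ask for an adjusted p below 0.01 together with a log2 fold change beyond 1 in either direction (0.00650% of all tested genes were), and 0 at an adjusted p under 0.05 (background 0.0130%). The lowest adjusted p was 0.513. DESeq2 called 0 as well (background 0.228%), with a lowest adjusted p of 0.125. At an unadjusted p under 0.05 there were 30 genes by edgeR, 29 higher and 1 lower, and 33 by DESeq2 (background 7.45%). Among all tested genes 7.55% had such a p by edgeR, 4.58% with a higher and 2.98% with a lower value.

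The log2 fold change was above 0 in 71 of the 78 genes (49.9% of all tested genes), with a median of 0.09, or 6.08%, against a median of -0.00032 over all tested genes. The levels in the 3 KO libraries were all above the 3 wild-type libraries for 49 genes (background 10.9%) and all below for 1 gene (background 8.26%). When the counts of copies were added to each gene, 77 of 78 were above 0, the median was again 0.09, and 59 genes did not overlap in the higher direction (background 10.9%). The median was 0.09 for 46 large subunit genes, 43 of them above 0, and 0.09 for 32 small subunit genes, 28 of them above 0. These genes share libraries and vary together, so the counts describe 6 libraries and are not 78 separate observations. Leaving out any of the 6 libraries left 70 to 72 genes above 0 and a median of 0.06 to 0.11, and library size alone in place of TMM factors left 71. The summed epithelial markers did not overlap between these groups, at 17.9 to 20.9 CPM in female KO and 21.8 to 47.0 CPM in female wild-type MEFs, and their part in the values was not tested.

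*Rpl13* had the highest fold change. It measured 369.9, 418 and 395 CPM in female wild-type and 464, 522 and 593 CPM in female KO MEFs. The groups did not overlap, and the log2 fold change was 0.42 (SE 0.13, adjusted p = 0.542). With copies added the values were 597, 635 and 625 against 705, 741 and 766 CPM, still apart, and the log2 fold change was 0.25. Its copy Gm12918 held 226, 216 and 230.1 CPM in wild-type and 240.4, 219 and 173 CPM in KO libraries.

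*Rps2*, a small subunit protein near the messenger entry channel (chr17:24855061-24858874), was next, with 1811, 1916 and 1911 CPM in wild-type and 2197, 2201 and 2271 CPM in KO libraries. Every KO library was above every wild-type library, at a log2 fold change of 0.24 (SE 0.08, adjusted p = 0.543), and its copies took only 0.0914% of its family counts. *Rps10* measured 478, 545 and 532 CPM against 590.1, 602 and 575 CPM, a log2 fold change of 0.18 (SE 0.07, adjusted p = 0.594), again without overlap.

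The 3 genes with the lowest fold changes were *Rpl10*, *Rpl39l* and *Rps13*. *Rpl10*, a late-joining large subunit protein, measured 212, 203 and 196 CPM in wild-type and 182, 171 and 158 CPM in KO libraries, and was the 1 gene with all KO libraries lower (log2 fold change -0.26, SE 0.07, adjusted p = 0.514). With its copies it measured 1056, 1086 and 1071 CPM against 1148, 1146 and 1097 CPM, and the log2 fold change was 0.08. The copy Rpl10-ps3 held 844, 883 and 875 CPM in wild-type and 965, 975 and 939 CPM in KO libraries, so gene and copy went in opposite directions. *Rps13* behaved alike, with -0.10 (SE 0.15) alone and 0.09 with copies, and *Rps6* had -0.02 (SE 0.06) alone and 0.07 with copies. *Rpl39l*, which has no copy, was low and scattered, at 6.45, 3.34 and 2.71 CPM in wild-type and 2.38, 5.10 and 3.14 CPM in KO libraries, with a log2 fold change of -0.23 (SE 0.35) and overlapping groups.

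The genes of the stalk, which contacts the elongation factors, all had values above 0 in female KO MEFs. *Rplp0*, the base of the stalk, measured 1925, 1995 and 1989 CPM in wild-type and 2152, 2128 and 2053 CPM in KO libraries, without overlap (log2 fold change 0.10, SE 0.04, adjusted p = 0.656). *Rplp1* measured 1239, 1317 and 1259.8 CPM against 1381, 1414 and 1358 CPM (0.12, SE 0.06), also without overlap. *Rplp2* measured 421, 462 and 449 CPM against 472, 489 and 450.2 CPM (0.08, SE 0.05), and its lowest KO library lay among the wild-type ones.

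Genes with known roles beyond the particle lay between the extremes above. Of the genes whose products bind Mdm2, *Rpl5* had a log2 fold change of 0.06 (SE 0.04), *Rpl11* 0.02 (SE 0.04), *Rpl23* 0.06 (SE 0.03) and *Rpl26* 0.09 (SE 0.04). *Rpl38*, needed for patterning of the axial skeleton, had 0.11 (SE 0.04), *Rps19*, the gene most often mutated in Diamond-Blackfan anaemia, 0.09 (SE 0.07), and *Rpl22*, known from T cell development, 0.07 (SE 0.05). *Rpsa*, also known as the laminin receptor, had 0.13 (SE 0.06), and *Rpl13a* 0.07 (SE 0.05). *Rps27a*, made as a fusion with ubiquitin, had -0.06 (SE 0.05), which became 0.03 when its copies were added. The adjusted p of each of these genes was above 0.6 by edgeR. *Rpl11* crossed 0 when female KO 2 or female wild-type 3 was left out, at -0.022 in the first case and just below 0 in the second. With copies matched over the coding sequence added, *Rpl5* had 0.09 (SE 0.03) and *Rpl11* 0.08 (SE 0.05).

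In male MEFs none of the 78 genes was called at either threshold (backgrounds 0.00650% and 0.00650%), with 3 at an unadjusted p under 0.05 (background 2.06%) by edgeR and 2 by DESeq2 (background 2.17%), and no adjusted p was below 1 by either tool. The log2 fold change was above 0 in 46 genes (background 47.7%) with a median of 0.00397, against -0.00405 over all tested genes. This count rested on single libraries, since it was 21 without male wild-type 3, 27 without male KO 1, 27 without male KO 2 and 59 without male KO 3. Leaving out both number 3 libraries gave 48. In the higher direction 1 gene did not overlap (background 2.78%) and in the lower direction 2 (background 2.52%).

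*Rpl13* and *Rps2* again had high values in the male KO. *Rpl13* measured 489, 544 and 434 CPM in wild-type and 655, 722 and 512 CPM in KO libraries, where KO 3 fell between wild-type libraries. The log2 fold change was 0.37 (SE 0.13), and 0.16 with copies added. Its copy Gm12918 held 181, 160.2 and 181 CPM in wild-type and 119, 85 and 132 CPM in KO libraries. *Rps2* measured 1877, 1910.3 and 1636 CPM against 2086, 2163 and 1737 CPM (0.14, SE 0.08), with each number 3 library the lowest of its group. *Rpl39l* had 0.29 (SE 0.33) on 4.69, 7.16 and 5.02 CPM against 6.21, 6.01 and 8.50 CPM.

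At the low end, *Rps13* measured 33.2, 29.6 and 50 CPM in wild-type and 31.7, 31.8 and 36.1 CPM in KO libraries (-0.18, SE 0.15). Without wild-type 3 this value was 0.08, and without both number 3 libraries 0.01. *Rps6* measured 1098, 1044 and 1023 CPM against 998, 1022 and 883 CPM (-0.12, SE 0.06), and with copies 1112, 1077 and 1035 against 1078, 1067 and 1046 CPM (-0.01). *Rpl27* measured 40.6, 42.6 and 43.9 CPM against 39.1, 40.9 and 37.7 CPM (-0.11, SE 0.05) and had -0.00548 with copies. The low values of *Rps6* and *Rpl27* in the male KO were thus close to 0 once the counts of copies were added.

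**Figure D4:**
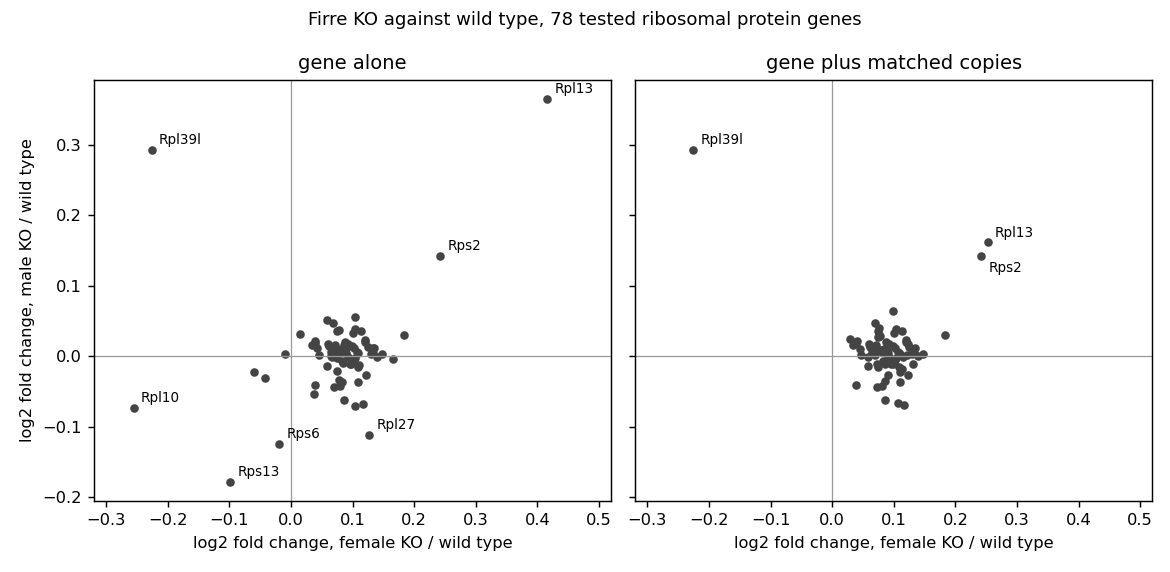
Log2 fold change of *Firre* KO against wild type in female (horizontal) and male MEFs (vertical) for the 78 tested genes, for the gene alone (left) and with counts of matched copies added (right). Most points lie right of 0 and near the horizontal line; *Rpl10*, *Rps13* and *Rps6* leave the lower left quadrant when copies are added, and *Rpl13*, *Rps2* and *Rpl39l* stay apart.

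Averaged over the sexes, 0 of 78 genes were called (backgrounds 0.00650% at the stricter and 0.0195% at the second threshold), with 10 at an unadjusted p under 0.05 (background 6.24%) by edgeR and 13 by DESeq2 (background 6.29%), and 70 had a log2 fold change above 0 (background 48.8%). The lowest adjusted p was 0.114 by DESeq2 and 0.522 by edgeR, the latter that of *Rpl13* at a log2 fold change of 0.39 (SE 0.09). *Rps2* had 0.19 (SE 0.06, adjusted p = 0.717). In the fit that left out both male number 3 libraries it was the 1 ribosomal protein gene past an adjusted p of 0.05, at 0.20. The share of all tested genes past it in that fit is not given here, so this count has no background. *Rpl10* had -0.16 (SE 0.05), which became 0.05 with copies.

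Whether the KO acted differently in female and male MEFs was tested as an interaction. No ribosomal protein gene passed (0 of 78, and 0.00% of all tested genes, at both thresholds), with no adjusted p below 1 by edgeR and a lowest of 0.342 by DESeq2. At an unadjusted p under 0.05 there were 5 genes by edgeR (background 3.19%) and 8 by DESeq2 (background 3.31%). The difference, female minus male, was above 0 for 72 of 78 genes (background 50.9%), with a median of 0.08. The highest were *Rpl27* (0.24, SE 0.06), *Rps15* (0.19, SE 0.07) and *Rpl36* (0.17, SE 0.11), and *Rpl27* fell to 0.11 with copies. The lowest were *Rpl39l* (-0.52, SE 0.48), *Rpl10* (-0.18, SE 0.10) and *Rps27a* (-0.04, SE 0.07), of which *Rpl10* became 0.05 and *Rps27a* 0.00470 with copies. The higher female values were therefore not shown to differ from those in male MEFs for any single gene.

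Female and male wild-type MEFs were also compared, although sex, line and embryo cannot be told apart with these libraries. At the stricter threshold 0 of 78 genes were called, against 4.54% of all tested genes. With an adjusted p under 0.05 and no limit on the fold change, 15 of 78 (19.2%) were called by edgeR, 10 lower and 5 higher in female MEFs, against 38.7% of all tested genes. DESeq2 called 19, 8 of them higher (background 40.8%). The split was again 5 and 10 with DESeq2's size factors (38.6% of all tested genes called) or with TMM factors from the other genes alone (38.7%). Library size alone gave 6 higher and 5 lower (38.2% of all tested genes called), and no filter on low counts 1 higher and 10 lower (22.4%). Copies matched over the coding sequence gave 6 higher and 6 lower (38.8%). Single libraries moved it as well, to 1 higher and 6 lower without female wild-type 3 (29.4% of all tested genes called). It was 4 and 4 without male wild-type 2 (31.8%), and 3 and 14 without male wild-type 3 (36.8%). The median absolute log2 fold change was 0.07, and 0.23 over all tested genes.

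*Rpl39* (chrX:34622515-34625397), a small protein of the exit tunnel, differed most among the genes called. It measured 237, 237 and 214 CPM in female wild-type and 337, 339 and 312 CPM in male wild-type MEFs, far apart, with a log2 fold change of -0.52 (SE 0.06, adjusted p = 7.96e-05). With its copies the values were 309, 309 and 290.4 against 395, 394 and 364 CPM, and the log2 fold change was -0.35 (adjusted p = 0.000212). Its copy Gm15430 was higher in female libraries, at 71.1 to 76.7 CPM against 52.9 to 57.9 CPM, and with or without it the groups did not overlap. The KO libraries, which enter the estimate of the spread but not the fold change, held 230.5, 256 and 229.6 CPM in female and 339.5, 341 and 343 CPM in male MEFs.

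For other called genes the copies mattered more. *Rpl10a* measured 66.2, 72.7 and 72.2 CPM in female wild-type and 96.4, 88.7 and 86.3 CPM in male wild-type MEFs (log2 fold change -0.36, adjusted p = 0.000411), and 563, 589 and 559 against 609.5, 596 and 546 CPM with copies, where the groups overlapped (-0.03, adjusted p = 0.607). *Rps16* measured 430.0, 449 and 435 CPM against 525, 509 and 528 CPM (-0.25, adjusted p = 0.00148), and had -0.08 with copies (adjusted p = 0.201). Its copy Rps16-ps2 held 108, 119 and 110.1 CPM in female and 62.2, 69.9 and 47.0 CPM in male libraries. *Rpl15* had 0.17 (adjusted p = 0.0369) alone and 0.08 (adjusted p = 0.114) with copies. *Rpl27* was higher in female MEFs, at 52.6, 56.0 and 53.0 CPM against 40.6, 42.6 and 43.9 CPM (0.35, adjusted p = 0.000231), and kept 0.15 with copies (adjusted p = 0.00492).

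Adding copies left 12 genes called (background 38.8%), of which 11 were among the 15, including *Rpl27*, *Rpl27a*, *Rpl29*, *Rpl35a*, *Rpl39*, *Rpl7a*, *Rps15a*, *Rps18*, *Rps20* and *Rps21*. The additional gene was *Rpl19*, with 0.11. The call of *Rpl27a* (-0.15) was also lost, and its sign turned, when copies were matched over the coding sequence (0.05), where Gm7536 takes most counts. The 7 genes called lower in female MEFs apart from *Rpl39*, *Rpl10a* and *Rps16* had log2 fold changes of -0.19 (*Rps21*) to -0.11 (*Rpl35a*). Of the 15 calls, those of *Rpl39*, *Rpl27*, *Rpl10a*, *Rps16* and *Rps15a* held whichever library was left out, and each of the other 10 was lost without at least 1 library. The number called was 6 without female wild-type 2 (29.2% of all tested genes), 7 to 9 without female wild-type 1 or 3 or male wild-type 1 or 2 (29.4% to 31.8%), and 17 without male wild-type 3 (36.8%), where calls were also gained. With both male number 3 libraries left out, 21 were called (45.1%).

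**Figure D5:**
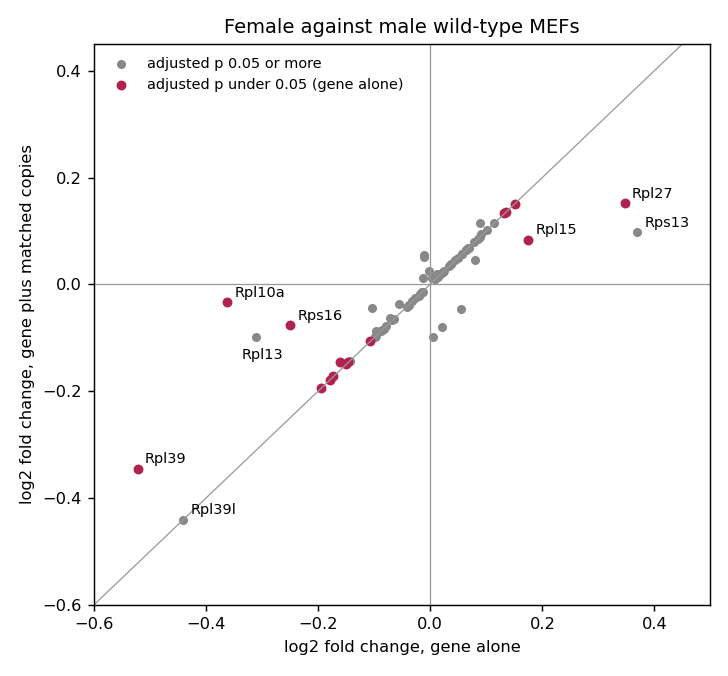
Log2 fold change of female against male wild-type MEFs for the 78 tested genes, for the gene alone (horizontal) and with counts of matched copies added (vertical), with the diagonal drawn in grey. Red points had an adjusted p under 0.05 for the gene alone; *Rpl10a*, *Rps16*, *Rpl27* and *Rpl15* lie nearer to 0 on the vertical axis, *Rpl39* stays at -0.35, and *Rpl39l* lies on the diagonal.

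*Rps13* and *Rpl39l* show how shared or low counts limit single genes in this comparison. *Rps13* measured 46.0, 51.1 and 48.4 CPM in female against 33.2, 29.6 and 50 CPM in male wild-type MEFs, a log2 fold change of 0.37 (SE 0.15, adjusted p = 0.078). Without male wild-type 3 it was 0.63 and passed an adjusted p of 0.05, while with copies it was 0.10 in all libraries. *Rpl39l* had -0.44 on overlapping groups. *Rpl13* had -0.31 (SE 0.13) alone and -0.10 with copies, neither past the threshold.

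Of the ribosomal protein genes on chromosome X, only *Rpl39* was called between the sexes. *Rps4x*, which in human has a Y-linked counterpart, measured 1147, 1165 and 1169 CPM in female wild-type and 1147, 1152 and 1102 CPM in male wild-type MEFs (log2 fold change 0.03, SE 0.03). *Rpl36a* measured 261, 292 and 276 CPM against 283, 285 and 299.7 CPM (-0.06, SE 0.06), and *Rpl10* 212, 203 and 196 CPM against 214, 188 and 214 CPM (-0.01, SE 0.07), both with overlapping groups. The sign of *Rpl10* was not stable and became 0.06 with copies. In female KO MEFs, *Rps4x* measured 1237, 1229 and 1187 CPM (0.07, SE 0.03 against female wild type), *Rpl36a* 302, 319 and 273 CPM (0.11, SE 0.06) and *Rpl39* had 0.06 (SE 0.06). In the male KO, *Rps4x*, *Rpl10*, *Rpl36a* and *Rpl39* had no adjusted p below 1.

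Among paralogues, *Rps27l* measured 168, 173 and 167 CPM in female wild-type and 162, 158 and 160.0 CPM in male wild-type MEFs (0.08, SE 0.04), and *Rps27* was lower in female MEFs (-0.16, adjusted p = 0.0355, and -0.15, adjusted p = 0.0547, with copies). The female groups of *Rps27l* overlapped between KO, at 170.2, 173 and 177 CPM, and wild type (0.03, SE 0.04).

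Other genes of the translation machinery were placed beside these. Of 18 translation factors, 17 had a log2 fold change above 0 in the female KO (background 49.9%) with a median of 0.09, and 0 passed an adjusted p of 0.05 by edgeR (background 0.0130%). *Tpt1*, whose messenger also carries a pyrimidine tract, averaged 1488 CPM in KO and 1232 CPM in wild-type MEFs (0.27, SE 0.06, adjusted p = 0.492). *Eef1a1*, the most abundant elongation factor, averaged 9540 and 8916 CPM (0.10, SE 0.04). Of 76 mitochondrial ribosomal protein genes 66 were above 0 (median 0.05), of 20 ribosome biogenesis genes 17 (median 0.07), and of 7 growth control genes 3 (median -0.01), with 0 passing in each list. In the male KO the numbers above 0 were 16, 41, 14 and 1 (background 47.7%), with 0 passing. Averaged over the sexes they were 17, 59, 18 and 4 (background 48.8%), and for the difference between the sexes 16, 57, 18 and 4 (background 50.9%), again with 0 passing.

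The same lists were counted between the sexes. Higher in female wild-type MEFs at an adjusted p under 0.05 were 42 of 76 mitochondrial ribosomal protein genes (2 were lower), 16 of 20 biogenesis genes and 8 of 18 translation factors (0 lower in both), against 5 of 78 cytosolic ribosomal protein genes higher and 10 lower (backgrounds 18.9% higher and 19.8% lower). Growth control genes had 3 higher and 2 lower, with *Myc* measuring 136 ± 0.719 CPM in female against 103 ± 2.17 CPM in male MEFs (SD, n = 3; log2 fold change 0.41, adjusted p = 3.45e-05). These lists differ in expression level and function from the ribosomal proteins, and the differences between lists were not tested.

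Ribosomal proteins that the symbol rule leaves out were described for completeness. *Fau*, which makes the small subunit protein eS30 as a fusion with a ubiquitin-like domain, measured 59.9 ± 3.27 CPM in female wild-type and 39.6 ± 1.81 CPM in male wild-type MEFs (log2 fold change 0.60, adjusted p = 7.98e-05). *Rpl22l1*, the paralogue of *Rpl22*, measured 42.6 ± 3.0 and 61.4 ± 7.66 CPM (-0.53, adjusted p = 0.00123). *Rpl7l1* (0.21) and *Rpl36al* (0.13) were also higher in female MEFs, while *Gnb2l1*, known as *Rack1*, had 0.05 with an adjusted p of 0.43. None of these 5 was called between KO and wild type in either sex, on average or in the interaction, and in the female KO they ranged from -0.12 (*Fau*) to 0.10 (*Gnb2l1*).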

How the data were processed

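RNA was extracted from MEFs, libraries were made with the TruSeq kit and, per the labels, reads were aligned with Bowtie2 and quantified with RSEM 1.2.29 on mm9. The authors deposited RSEM expected counts per gene, without scaling. How strand was used in counting is not given in the sources used here. The Hi-C files were not used here.

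These were rounded and fitted in edgeR 4.0.16 (R 4.3.3) by quasi-likelihood, with TMM factors, filterByExpr, 1 mean per sex and genotype over 12 libraries, 8 residual degrees of freedom and Benjamini-Hochberg adjustment over 15387 genes (common biological coefficient of variation 0.114). CPM are scaled by TMM factors. Thresholds were the study's, an adjusted p below 0.01 together with a log2 fold change beyond 1 in either direction, and, second, an adjusted p under 0.05. Standard errors are the absolute log2 fold change divided by the square root of edgeR's quasi-likelihood F statistic. The code was tested on simulated data. Depth limits low genes, and a limit from 0 counts covers counting error only. All 37310 gene identifiers are in the annotation (NCBIM37, mm9) from which lengths and coordinates were taken, and copies were found with BLAST 2.17.0. Promoter windows are RefSeq's.

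The genes and the lists were chosen with earlier results of these data known. Genes named were those on chromosome X, of the stalk, paralogues and their parents, with roles beyond the particle, highest and lowest per kb, with the largest copy shares, and the 3 highest and 3 lowest by log2 fold change in each comparison. Exceptions are the genes called between the sexes, those whose copy share varied between libraries, and others marked as such. Alternatives were DESeq2 1.42.0, other scalings, no filter, copies added, a replicate block, only the libraries compared and each library left out. Matching over the coding sequence, leaving out both male number 3 libraries, a block within each sex and the counts of genes at an adjusted p under 0.05 or above 0 were added after the data were seen. Replicate numbers were checked for pairing, and since not every pair deviated together, the comparisons have no block. Some items are not reported here.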

Additional observations from a re-analysis of the deposited data

How the results depend on the processing

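In female MEFs, male MEFs and the interaction, 0 of 78 genes were called between KO and wild type under every alternative run (DESeq2, DESeq2's size factors, library size alone, TMM factors from the other genes alone, no filter, added copies, replicate block, only the libraries compared where run, and each library left out). In the average over the sexes 1 gene, *Rps2*, passed an adjusted p of 0.05 with both male number 3 libraries left out. Its fold change stayed below the study's limit, and the share of all tested genes that passed in that fit is not given here. Between wild-type females and males, dropping the limit on the fold change gave 15 in place of 0 calls (38.7% of all tested genes). Leaving out 1 library gave 6 (29.2%) to 17 (36.8%). The count of genes above 0 in the male KO was 21 to 59 with 1 library left out.

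Adding copies turned the sign of several genes. In the female KO the values became 0.078 for *Rpl10*, 0.091 for *Rps13*, 0.074 for *Rps6*, 0.029 for *Rps27a* and 0.12 for *Rpl10a* (-0.01 alone) with either match. *Rpl10* became 0.029 in the male KO (-0.073 alone), 0.054 in the average, 0.049 in the interaction and 0.055 between the sexes. In the average *Rps13* became 0.032 (-0.14 alone) and *Rps6* 0.030 (-0.072 alone). *Rps27a* became 0.00470 or, matched over the coding sequence, 0.00484 in the interaction, and *Rpl27a* became 0.052 between the sexes with the coding match.

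With 1 library left out, values in the female KO ranged from -0.59 to 0.23 for *Rpl39l*, -0.022 to 0.034 for *Rpl11*, -0.058 to 0.010 for *Rps6* and -0.052 to 0.018 for *Rpl10a*. In the male KO they ranged from -0.32 to 0.080 for *Rps13* and from -0.018 to 0.014 for *Rps4x*, and between the sexes from -0.074 to 0.018 for *Rpl10*. Without both male number 3 libraries *Rps13* and *Rps4x* had 0.013 and -0.010 in the male KO, and *Rpl10* had 0.019 between the sexes. Library size alone gave *Rpl10* 0.010 there.

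Mean shares of a library in female KO, female wild-type, male KO and male wild-type MEFs were 5.71%, 5.41%, 5.43% and 5.37% of all counts less the 50 most abundant other genes, 5.25%, 4.95%, 4.95% and 4.88% with copies, and 5.56%, 5.23%, 5.23% and 5.15% with copies matched over the coding sequence. The ratio of the 90th to the 10th percentile per kb was 10.6 for the longest protein-coding transcript, 15.7 for the effective length, 8.74 with copies added, 7.5 for the transcript with the longest coding sequence, 6.17 for the coding length, and 2.03 for the coding length with copies. Copies took 14.4% of the counts when matched over the coding sequence. Except where a construction shows it (fewer libraries, added counts, another length), the cause of these shifts was not tested.

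Replicate numbers are shared between the groups. Same-numbered libraries of wild type and KO had correlations of their deviations of -0.16, -0.12 and -0.15 in female and 0.0966, 0.22 and 0.33 in male MEFs. As not every pair was over 0.1, the numbers were not taken to pair the samples, and male wild-type 1 correlated best with male KO 2 (0.14). With the replicate number as a block, 0 genes were called in each KO comparison, 71 genes were above 0 in the female KO, and 16 were called between the sexes (38.4% of all tested genes). With a block within each sex, 0 genes were again called in each KO comparison, and 71 and 46 were above 0 in the female and male KO.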
